A study of Ambystoma mexicanum with 8 samples.

Results

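The WNT, FGF, BMP and R-spondin ligands of the axolotl limb were read in cells sorted at a DNA content of 4 C from 2 groups of limbs. The members are all rows of the deposited gene list whose last gene symbol is WNT, FGF or BMP followed by a number (with or without A or B), or RSPO followed by a digit. The rule uses names alone and found 54 of 60956 gene identifiers, 19 of the WNT, 20 of the FGF, 11 of the BMP and 4 of the R-spondin family, under 44 symbols. All 54 had at least 1 UMI (unique molecular identifier, the count of a captured RNA molecule) in the cells kept, and 51 reached the 50 UMIs set as the minimum for naming a source. The 3 below that were FGF14 AMEX60DD048159 with 22 UMIs, FGF23 with 19 and WNT3 with 8. In 8 symbols the name is shared by 2 or 3 identifiers (BMP1 and BMP2 by 3 each; WNT4, WNT7B, WNT11, FGF11, FGF12 and FGF14 by 2 each), which are described separately.

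The Contra group has 4 libraries (numbers 1, 2, 3 and 5) and the Intact group also has 4 (numbers 1, 3, 4 and 5), all from limb tissue labelled wild-type. Per the series' own design text the study set systemically activated limbs beside limbs at rest. A time of 14 days after amputation is given for the Contra libraries, and none is given for the Intact libraries. Contra is read here as the activated and Intact as the resting group, although the labels do not spell out the word Contra. Limb cells were dissociated, live cells holding a DNA content of 4 C were sorted, and RNA was captured with the 10x Genomics 3' chemistry, version 3.1. That gate takes cells that have copied their DNA and also pairs of unreplicated cells that stick together, so every level below is that of sorted cells and not of the whole limb. The age of the animals, and whether each library came from a separate animal, are not given in the sources used here, so p-values measure the spread between these libraries.

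WNT proteins are lipid-modified secreted signals that act through Frizzled receptors and LRP5 or LRP6 to stabilise beta-catenin, or through ROR and RYK receptors without it. R-spondins are secreted proteins that bind LGR4, LGR5 or LGR6 and keep the ligases RNF43 and ZNRF3 from removing Frizzled receptors, which raises the response to WNT. FGFs act through the receptor tyrosine kinases FGFR1 to FGFR4, and BMPs through type I and type II serine/threonine kinases that phosphorylate SMAD1, SMAD5 and SMAD9. In the vertebrate limb bud, FGFs and WNTs of the ectoderm and mesenchyme maintain outgrowth, and BMPs act in digit and skeletal formation. Some names mislead: BMP1 is a metalloprotease that trims procollagen and not a BMP ligand, and FGF11 to FGF14 stay inside the cell and bind sodium channels.

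After a minimum of 500 genes per cell and removal of called doublets, 33756 cells remained, 22847 Contra and 10909 Intact. The total count per library ranged between 39721939 and 99777499 UMIs in Contra and between 13344968 and 69023082 in Intact. The cells formed 33 clusters. Markers gave 7 classes: connective tissue-like (13199 cells), epidermal-like (10053), endothelial-like (2450), erythroid-like (1226), macrophage-like (618), mast cell or basophil-like (345) and T cell-like (206). Clusters that did not meet the naming rule keep their numbers, among them cluster 2 (2487 cells, led by MFAP5 and KRT5), cluster 17 (764 cells, ACAN and PTX3), cluster 21 (479 cells, the muscle genes MYH3 and TNNI2) and cluster 22 (472 cells, BGLAP, IFITM5, PANX3 and COL2A1). Clusters 2 and 17 each raised 10 of the 11 connective tissue markers detected. They went unnamed because their leading genes held more markers of another class, so they are not apart from connective tissue in those markers. Connective tissue-like cells made up 51.6, 43.9, 52.4 and 21.8% of cells in Contra and 15.9, 54.8, 14.1 and 13.4% in Intact. Epidermal-like cells made up 14.7, 32.3, 7.63 and 41.1% in Contra and 62.3, 9.04, 65.2 and 72.3% in Intact, so Contra 5 and Intact 3 stand apart from their own groups in makeup. Throughout, values per library run in the order Contra 1, 2, 3 and 5, then Intact 1, 3, 4 and 5. Libraries with under 20 cells of a class are left out of that class and named where this happens. A level is the summed UMIs of a ligand per 1000000 UMIs (CPM) of that class in that library. It is not per gene length, so levels are compared between classes and libraries for one ligand, never between ligands.

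The source of a ligand, defined as the class or unnamed cluster with the highest mean CPM over libraries, was a named class for 25 of the 51 identifiers and an unnamed cluster for 26. Cluster 22 was the source of 9, connective tissue-like and endothelial-like cells of 7 each, cluster 21 of 6, epidermal-like cells of 4, and cluster 2, cluster 17, cluster 29 and macrophage-like cells of 3 each. T cell-like cells, mast cell or basophil-like cells and cluster 28 were the source of 2 each. For 16 identifiers the source held at least 2 times the level of the next class. Of all 51, 14 ranked first in their source in every library that could be read. The remaining sources are leads over a closer runner-up. A class averages over its clusters, and for 22 of the 51 the highest single cluster lay in another class than the source; where that cluster changes the picture its level is given too.

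**Figure D1:**
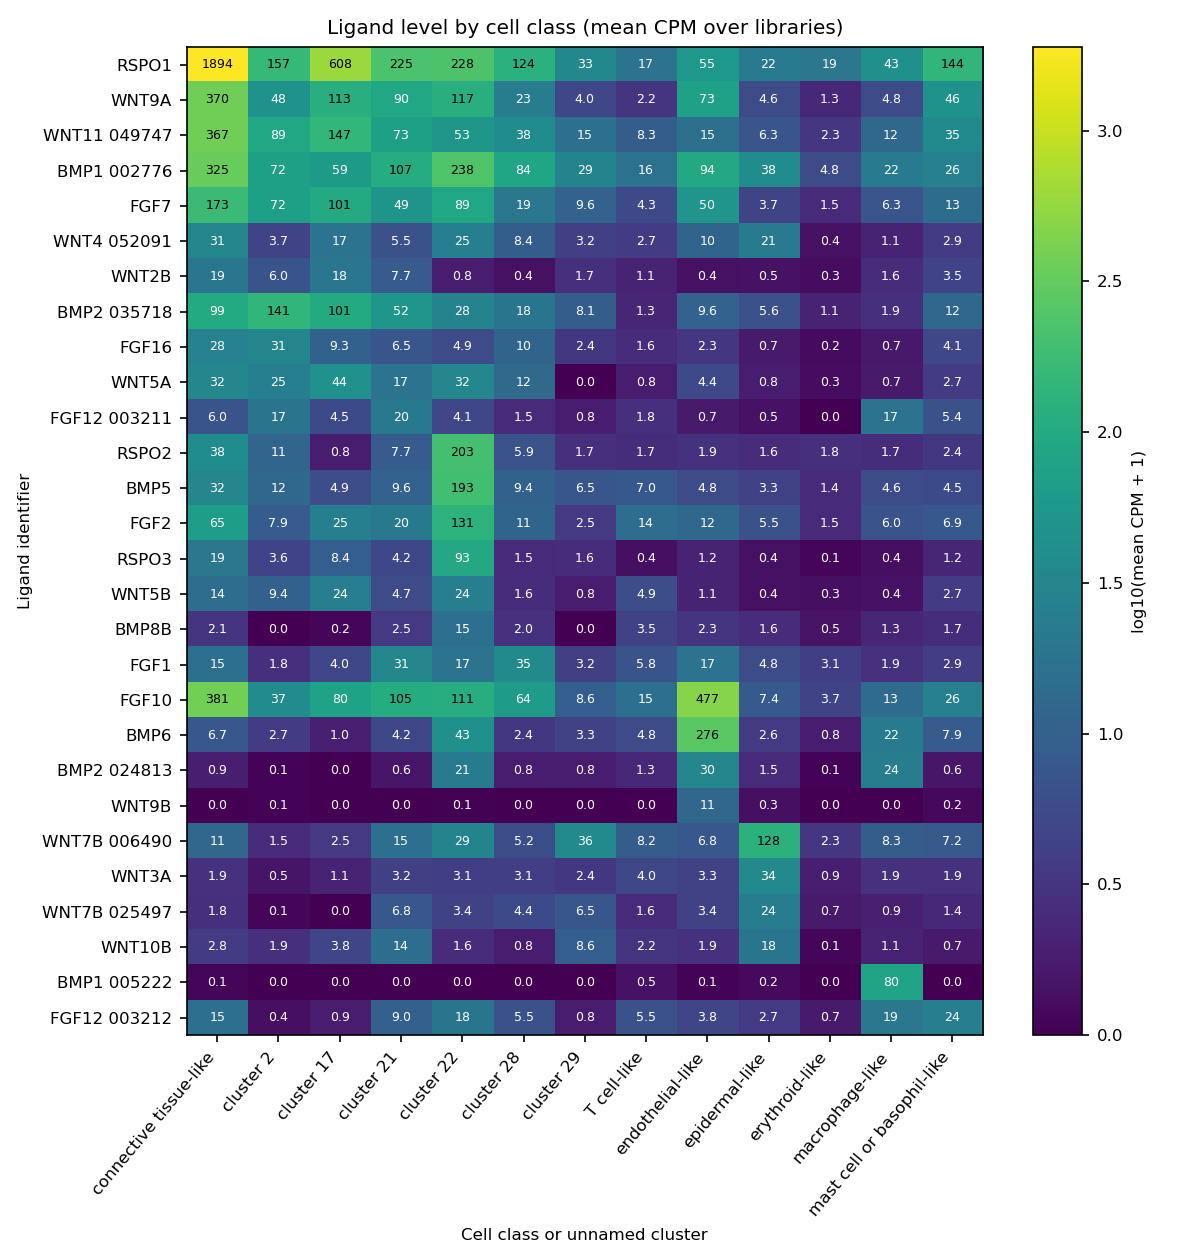
Mean CPM over libraries (printed in each cell; shade is log10 of the mean plus 1) of the 28 ligand identifiers that reach 10 CPM in their source, by class or unnamed cluster. Read along a row, WNT7B AMEX60DD006490 reaches 128 CPM in epidermal-like cells, BMP6 276 CPM in endothelial-like cells and RSPO2 203 CPM in cluster 22, whereas FGF10 is high both in endothelial-like (477 CPM) and connective tissue-like cells (381 CPM).

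The R-spondins came mostly from cells of the connective tissue and cluster 22. RSPO1 (AMEX60DD005869) had its source in connective tissue-like cells, at 1894 ± 386 CPM (SD, n = 8), against 608 CPM in cluster 17. Its levels were 1844, 1643, 1269 and 2022 CPM in Contra and 2516, 1623, 2052 and 2181 CPM in Intact. The groups overlapped, and the log2 fold change, Contra over Intact as throughout, was -0.23 ± 0.14 (SE; unadjusted p = 0.129, adjusted p = 0.861) by edgeR's quasi-likelihood test. Of connective tissue-like cells, 68.7% held at least 1 RSPO1 UMI, and of erythroid-like cells, which serve as the measure of free RNA in the droplets, 8.81% did (median 13853 and 15539 UMIs per cell). With each cell of at least 2000 UMIs thinned to 2000, these shares were 51.8% and 1.91%. Thinned shares leave out cells under that depth, 2055 in Contra and 1175 in Intact over all classes. Within the class, RSPO1 was highest in cluster 12, at 4599 ± 1307 CPM in Contra and 5569 ± 999.7 CPM in Intact (SD), where 85.1% of thinned cells held a UMI.

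RSPO2 (AMEX60DD040292) and RSPO3 (AMEX60DD034707) had their source in cluster 22, whose leading genes BGLAP, IFITM5 and PANX3 are known from bone-forming cells. Its leading genes also hold the cartilage marker COL2A1, and all 5 tendon markers detected were raised there, so the cluster was not named. RSPO2 averaged 203 CPM there and 38.4 CPM in connective tissue-like cells, with 169, 317, 153 and 197 CPM in Contra and 174 and 212 CPM in Intact 3 and 4. Single connective tissue-like clusters came closer, at 114 CPM in cluster 11, where RSPO2 is among the leading genes, and 96.3 CPM in cluster 9. Cluster 22 held 12.2% of the RSPO2 UMIs. RSPO3 averaged 93.1 CPM in cluster 22 and 19.2 CPM in connective tissue-like cells, with 107, 108, 64.2 and 116 CPM in Contra and 58.8 and 106 CPM in Intact 3 and 4. The next single cluster for RSPO3 was connective tissue-like cluster 23, at 62.3 CPM, and cluster 22 held 10.9% of its UMIs. Both were first in cluster 22 in all 6 libraries with enough cells, and Contra and Intact overlapped for both. RSPO4, the R-spondin of the nail bed in mammals, was near the limit of detection, with 130 UMIs in all and 3.34 CPM in cluster 29, a cluster led by the proton pump genes ATP6V1G3 and ATP6V1B1.

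The WNT ligands of at least 10 CPM came from connective tissue-like, epidermal-like and endothelial-like cells and from clusters 17 and 22. WNT9A (AMEX60DD020504), a signal of forming joints, had its source in connective tissue-like cells at 369.8 ± 73.3 CPM (SD, n = 8), against 117 CPM in cluster 22. Its levels were 325, 306, 268 and 413 CPM in Contra and 484, 329.7, 409 and 424 CPM in Intact, with a log2 fold change of -0.25 ± 0.12 (SE; unadjusted p = 0.0656, adjusted p = 0.816). The p before adjustment was the lowest of the 19 ligands that could be tested in their source, and Contra and Intact overlapped. WNT11 (AMEX60DD049747), which mainly acts without beta-catenin, averaged 367 ± 51.1 CPM (SD, n = 8) in connective tissue-like cells and 147 CPM in cluster 17. Its levels were 341, 435, 288 and 417 CPM in Contra and 408, 317, 363 and 371 CPM in Intact, with no separation of the groups.

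WNT4 (AMEX60DD052091) averaged 31.0 CPM in connective tissue-like cells and 24.7 CPM in cluster 22. The libraries held 35.3, 29.4, 31.1 and 36.2 CPM in Contra and 23.9, 33.7, 29.2 and 29.1 CPM in Intact; Intact 3 lay within the Contra range, and the log2 fold change was 0.22 ± 0.12 (SE; unadjusted p = 0.0942, adjusted p = 0.833). WNT2B averaged 18.6 CPM in connective tissue-like cells and 18.4 CPM in cluster 17, so its source is not separated from the runner-up. Its levels were 14.8, 16.0, 13.1 and 24.8 CPM in Contra and 23.9, 18.1, 15.6 and 22.3 CPM in Intact. WNT5A, the ROR-binding WNT of the limb mesenchyme, averaged 43.9 CPM in cluster 17 and 32.2 CPM in cluster 22, and 50.3 CPM in cluster 4 of the connective tissue-like class. In cluster 17 it was read at 40.5, 47.6, 46.9 and 50.6 CPM in Contra and 40.9 and 36.6 CPM in Intact 3 and 4, overlapping between the groups. Its paralog WNT5B (AMEX60DD006911) averaged 24.3 CPM in cluster 22, 24.1 CPM in cluster 17 and 24.3 CPM in cluster 4, which do not tell a source apart. In cluster 22 the 4 Contra libraries lay above both Intact libraries, with 35.7, 29.9, 23.1 and 32.0 CPM in Contra and 12.8 and 12.7 CPM in Intact 3 and 4. These levels rest on 121 UMIs in Contra and 22 in Intact, so the closeness of the Intact values rests on few counts. The 2 Intact libraries are too few for the test. With the minimum lowered to 10 cells per library, a setting added after the values were seen, cluster 22 held 3 Intact libraries, and WNT5B averaged 30.1 ± 5.30 CPM in Contra and 12.9 ± 0.223 CPM in Intact (SD, n = 4 and 3). The groups were again apart, as for 2.13% of all genes there, with a log2 fold change of 0.95 ± 0.34 (SE; unadjusted p = 0.0205, adjusted p = 1.00 by edgeR). In cluster 17 at the same minimum the groups overlapped, with WNT5B at 25.9 ± 3.61 CPM in Contra and 26.9 ± 13.3 CPM in Intact (SD, n = 4 each) and a log2 fold change of 0.39 ± 0.30 (SE; unadjusted p = 0.215, adjusted p = 0.929 by edgeR).

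**Figure D2:**
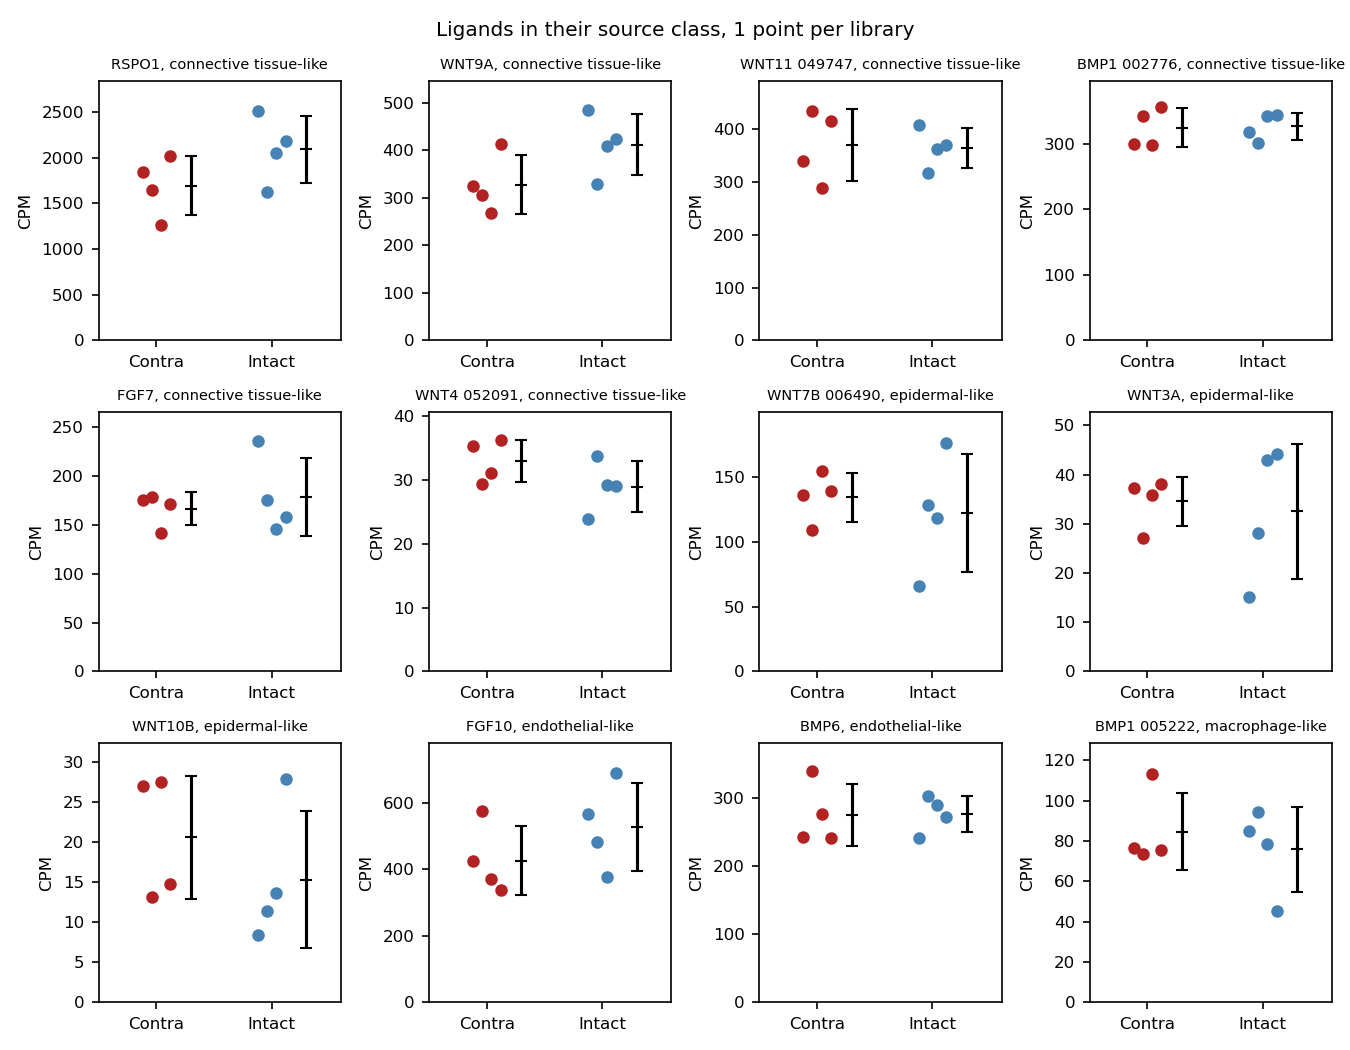
Level in CPM of 12 ligands in their source class, 1 point per library, Contra left of Intact, with the mean and SD of the 4 libraries as black bars beside the points. Contra and Intact points overlap in each of the 12 panels, as for RSPO1 at 1269 to 2022 CPM in Contra and 1623 to 2516 CPM in Intact.

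Epidermal-like cells were the source of WNT ligands only among the families read. WNT7B AMEX60DD006490, a beta-catenin activating WNT of the limb ectoderm, averaged 128 ± 32.7 CPM (SD, n = 8) there and 35.8 CPM in cluster 29. Its levels were 136, 109, 154 and 139 CPM in Contra and 65.9, 128, 118 and 176 CPM in Intact. Intact 1 was the lowest and Intact 5 the highest library, with Contra between them. The second WNT7B identifier, AMEX60DD025497, which also carries the name WNT7C.S, averaged 23.6 CPM in epidermal-like cells, with 23.5, 20.1, 23.7 and 22.6 CPM in Contra and 16.8, 26.1, 23.1 and 33.3 CPM in Intact. WNT3A (AMEX60DD020503), an ectodermal WNT of the chick limb bud ridge, averaged 33.6 CPM in epidermal-like cells and 4.00 CPM in T cell-like cells. Its levels of 37.2, 27.2, 35.8 and 38.0 CPM in Contra and 15.2, 28.1, 43.0 and 44.1 CPM in Intact again put Intact 1 lowest. WNT10B averaged 18.0 CPM in epidermal-like cells and 14.5 CPM in cluster 21, with 26.9, 13.1, 27.5 and 14.8 CPM in Contra and 8.44, 11.4, 13.6 and 27.8 CPM in Intact. The log2 fold changes of these 4 identifiers ran between -0.23 ± 0.13 and 0.36 ± 0.33 (SE), and the lowest unadjusted p was 0.119.

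Within the epidermal-like class the 4 were concentrated in cluster 14, 911 cells led by ITGB4, KRT19, LAMA3 and COL17A1, genes of cells anchored to the basement membrane. WNT7B AMEX60DD006490 averaged 567 CPM in cluster 14 and 176 CPM in the next cluster. By library it was read there at 552, 554, 529 and 627 CPM in Contra and 647, 461, 504 and 661 CPM in Intact. Contra and Intact had nearly equal means, 566 ± 42.7 CPM in Contra and 568 ± 101 CPM in Intact (SD), n = 4 each, and a log2 fold change of 0.01 ± 0.17 (SE; unadjusted p = 0.973, adjusted p = 0.998). WNT3A in cluster 14 was read at 143, 149.6, 104 and 114 CPM in Contra and 130.4, 106, 174 and 173 CPM in Intact, and WNT10B at 118, 92.5, 115 and 85.0 CPM in Contra and 108, 67.2, 81.2 and 108 CPM in Intact. WNT7A, the dorsal ectoderm signal of the mouse and chick limb bud, was read in cluster 14 at 35.7, 28.5, 30.0 and 30.8 CPM in Contra and 31.2, 1.87, 22.5 and 39.1 CPM in Intact, where Intact 3 was far below the other 7 libraries. WNT4, whose class source was connective tissue, also had its highest cluster here, at 85.7, 75.4, 82.4 and 80.6 CPM in Contra and 87.9, 65.3, 83.7 and 93.2 CPM in Intact. None of the 10 ligands tested in cluster 14 had an unadjusted p under 0.05, against 6.08% of all 10044 genes. Thinning kept the 637 of 911 cluster 14 cells that were deep enough. Of those, 61.1% held a WNT7B UMI, against 1.30% of thinned erythroid-like cells (71.1% and 3.92% unthinned, median 3207 and 15539 UMIs).

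**Figure D3:**
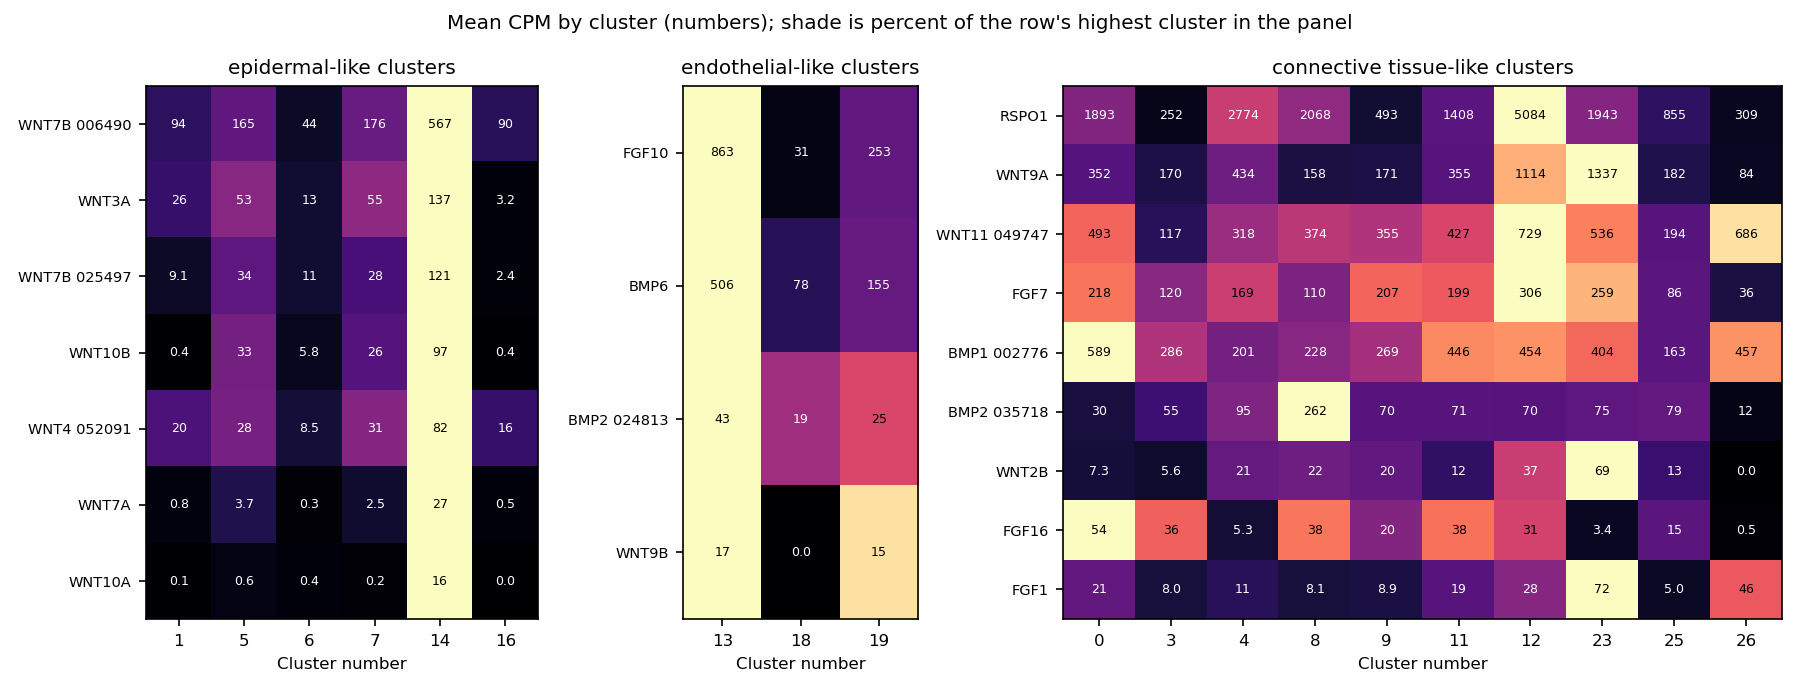
Mean CPM of ligands (rows) in the single clusters of the epidermal-like, endothelial-like and connective tissue-like classes (columns); the shade is the percentage of the row's highest cluster within the panel. All 7 WNT identifiers of the left panel peak in cluster 14, FGF10 (863 CPM) and BMP6 (506 CPM) peak in cluster 13, RSPO1 (5084 CPM) peaks in cluster 12 and WNT9A (1337 CPM) in cluster 23.

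Endothelial-like cells were the source of WNT9B, FGF10, BMP6 and one BMP2 identifier. WNT9B averaged 11.1 CPM there and 0.349 CPM in epidermal-like cells, its runner-up. The level is low but was first in all 8 libraries, with 10.5, 17.1, 12.2 and 8.90 CPM in Contra and 13.3, 10.6, 8.12 and 8.41 CPM in Intact. FGF10 (AMEX60DD042028), the mesenchymal FGF that starts limb outgrowth in mouse and chick, averaged 477 ± 123 CPM (SD, n = 8) in endothelial-like cells and 381 CPM in connective tissue-like cells. Its levels in endothelial-like cells were 424, 575, 370.2 and 338 CPM in Contra and 566, 481, 376 and 689 CPM in Intact, and Intact 5 was the highest. The endothelial lead is by a factor of 1.25. After thinning, 38.0% of endothelial-like and 1.13% of erythroid-like cells held an FGF10 UMI (55.4% and 3.02% unthinned, median 8248 and 15539 UMIs). BMP6 (AMEX60DD038339), known in mouse liver as an endothelial signal of iron balance, averaged 276 ± 34.7 CPM (SD, n = 8) in endothelial-like cells and 42.7 CPM in cluster 22. Its levels were 243, 340.2, 276 and 242 CPM in Contra and 242, 303, 291 and 272 CPM in Intact and overlapped between the groups.

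Among the single clusters FGF10 and BMP6 were highest in cluster 13, 1084 endothelial-like cells led by MMRN1, STAB1, PROX1 and FLT4, genes known from lymphatic endothelium. BMP6 is itself among the genes that define that cluster. There BMP6 was read at 530.1, 493, 524 and 563 CPM in Contra and 433, 479, 553 and 476 CPM in Intact, and FGF10 at 957, 917, 712 and 935 CPM in Contra and 577, 818, 735 and 1252 CPM in Intact. The groups overlapped for both. The lead of FGF10 is narrow: it averaged 863 CPM in cluster 13 and 796 CPM in cluster 12 of the connective tissue-like class, was first in cluster 13 in 5 of 8 libraries, and had 9.03% of its UMIs there.

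Of the other secreted FGFs, FGF7 (AMEX60DD003767), the keratinocyte growth factor made by mesenchyme, had its source in connective tissue-like cells at 173 ± 29.3 CPM (SD, n = 8), against 101 CPM in cluster 17. Its levels were 176, 179, 141 and 171 CPM in Contra and 236, 175, 145 and 158 CPM in Intact. The log2 fold change was -0.03 ± 0.15 (SE; unadjusted p = 0.843, adjusted p = 1). FGF2, which leaves cells without a signal peptide, averaged 131 CPM in cluster 22 and 65.0 CPM in connective tissue-like cells, with 123, 119, 75.9 and 261 CPM in Contra and 52.0 and 152 CPM in Intact 3 and 4. Contra 5 was the highest and Intact 3 the lowest. In connective tissue-like cluster 12 FGF2 averaged 123 CPM, close to its level in cluster 22. Among single clusters it was first in cluster 22 in 3 of 6 libraries. In cluster 17, at the lower minimum of 10 cells, FGF2 averaged 30.9 ± 6.10 CPM in Contra and 14.5 ± 12.8 CPM in Intact (SD, n = 4 each), overlapping, with a log2 fold change of 0.95 ± 0.33 (SE; unadjusted p = 0.00988, adjusted p = 0.653 by edgeR); 3.36% of all genes there had an unadjusted p under 0.05 with Contra higher. FGF1, also without a signal peptide, averaged 35.2 CPM in cluster 28, led by the platelet-type genes ITGA2B, GP5 and GP9, and 31.2 CPM in cluster 21. In cluster 28 it was read at 15.9, 30.6 and 28.5 CPM in Contra 1, 2 and 3 and 31.8 and 69.2 CPM in Intact 3 and 4. The Contra libraries thus lay below both Intact libraries there, on only 22 UMIs in Contra and 11 in Intact, too few libraries for the test. FGF1 averaged 71.7 CPM in cluster 23 of the connective tissue-like class, where it was first in all 6 libraries read. FGF16 averaged 30.7 CPM in cluster 2 and 27.7 CPM in connective tissue-like cells, with 30.2, 36.7, 31.1 and 45.1 CPM in Contra and 10.4, 41.3 and 20.4 CPM in Intact 1, 3 and 4 in cluster 2. Its highest single cluster was connective tissue-like cluster 0, at 53.6 CPM.

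Of the FGFs that act inside cells, FGF12 AMEX60DD003211 averaged 19.9 CPM in cluster 21, the cluster led by muscle genes, with 24.5, 11.9, 18.0 and 18.5 CPM in Contra and 17.3 and 29.0 CPM in Intact 3 and 4. FGF12 AMEX60DD003212 averaged 23.9 CPM in mast cell or basophil-like cells and 18.8 CPM in macrophage-like cells, with 35.2, 28.1, 23.7 and 13.9 CPM in Contra and 18.7 CPM in Intact 3 in mast cell or basophil-like cells. Its highest single cluster was connective tissue-like cluster 23, with 31.5, 41.3, 33.5 and 38.7 CPM in Contra and 59.6 and 258 CPM in Intact 3 and 5. The mean of 77.1 CPM there leans on Intact 5, with 25 UMIs in 21 cells. FGF13 averaged 8.68 CPM in cluster 21 and 15.8 CPM in cluster 0, and FGF14 AMEX60DD048162 4.89 CPM in endothelial-like cells and 10.8 CPM in cluster 23. The 2 FGF11 identifiers averaged 4.32 CPM in T cell-like cells and 0.459 CPM in endothelial-like cells.

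Among the BMP ligands, BMP5 (AMEX60DD033480) had its source in cluster 22, at 193 CPM, against 32.0 CPM in connective tissue-like cells. The next single cluster, connective tissue-like cluster 12, averaged 98.0 CPM, and cluster 22 held 14.9% of the BMP5 UMIs. In cluster 22 BMP5 was read at 159, 146, 155 and 383 CPM in Contra and 168 and 148 CPM in Intact 3 and 4, with Contra 5 far above the other 5 libraries. At the lower minimum of 10 cells, BMP5 averaged 211 ± 115 CPM in Contra and 390 ± 402 CPM in Intact (SD, n = 4 and 3). The library added is Intact 5, with 18 cells, and the higher Intact mean rests on it. The groups overlapped, with a log2 fold change of -0.79 ± 0.54 (SE, unadjusted p = 0.179 by edgeR). BMP8B averaged 14.6 CPM in cluster 22, with 20.5, 8.96, 21.6 and 12.3 CPM in Contra and 24.3 and 0 CPM in Intact 3 and 4; Intact 4 had no UMI in its 26 cells. The 3 BMP2 identifiers had 3 different sources. BMP2 AMEX60DD035718 averaged 141 CPM in cluster 2 and 101 CPM in cluster 17, with 154, 168, 79.4 and 150.4 CPM in Contra and 208, 112 and 117 CPM in Intact 1, 3 and 4 in cluster 2. Its highest single cluster, however, was connective tissue-like cluster 8, at 262 CPM, first in all 8 libraries and holding 30.2% of its UMIs. BMP2 is itself among the leading genes of cluster 8. There it was read at 283, 261, 252 and 293 CPM in Contra and 247, 257, 276 and 226 CPM in Intact, and 85.7% of cells held a UMI, against 45.6% in cluster 2 (36.8% and 16.9% after thinning). The groups overlapped in cluster 8, with a log2 fold change of 0.16 ± 0.13 (SE; unadjusted p = 0.242, adjusted p = 0.929 by edgeR). BMP2 AMEX60DD024813 averaged 30.2 CPM in endothelial-like cells and 23.7 CPM in macrophage-like cells, with 25.1, 31.3, 29.5 and 28.0 CPM in Contra and 39.9, 29.2, 36.2 and 22.4 CPM in Intact in endothelial-like cells. BMP2 AMEX60DD052421 had 54 UMIs in all and averaged 1.87 CPM in macrophage-like cells.

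That last BMP2 identifier was the only one of the 51 whose 4 Contra and 4 Intact libraries did not overlap in its source, with 2.58, 4.90, 2.75 and 3.15 CPM in Contra and 0, 1.58, 0 and 0 CPM in Intact. The counts behind it are 20 UMIs in Contra and 3 in Intact. It fell below the filter on low counts and was not tested; among the 10725 genes that were tested in macrophage-like cells, 1.22% had every Contra library above every Intact library.

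The protease BMP1 showed 1 broad and 1 restricted identifier. BMP1 AMEX60DD002776 averaged 325 ± 23.6 CPM (SD, n = 8) in connective tissue-like cells and 238 CPM in cluster 22, and was first in all 8 libraries, with 300.0, 343, 298 and 356 CPM in Contra and 317, 302, 342 and 344 CPM in Intact. BMP1 AMEX60DD005222, which also carries the name AMMEHE, averaged 80.2 CPM in macrophage-like cells and 0.453 CPM in T cell-like cells, the highest ratio of source to runner-up of the 51, at 177. Macrophage-like cells held 95.2% of its UMIs. It was read there at 76.4, 73.4, 113 and 75.7 CPM in Contra and 84.8, 94.3, 78.7 and 45.5 CPM in Intact, with Contra 3 highest and Intact 5 lowest, and a log2 fold change of 0.16 ± 0.23 (SE; unadjusted p = 0.514, adjusted p = 1). Whether that identifier encodes the same protease cannot be told from the files, since its row holds both names.

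The 23 identifiers under 10 CPM in their source averaged between 0.192 CPM (FGF3, in mast cell or basophil-like cells) and 8.68 CPM (FGF13). They include limb bud FGFs: FGF8 averaged 1.19 CPM in cluster 2, and FGF4 2.98 and FGF18 1.46 CPM in cluster 22, each from 177 to 385 UMIs in all cells. FGF17 averaged 3.50 CPM in endothelial-like cells and 3.05 CPM in epidermal-like cells. FGF9 averaged 2.76 and FGF6 2.37 CPM in cluster 21. WNT8B averaged 5.88 CPM in macrophage-like cells and 1.06 CPM in cluster 28. WNT10A averaged 1.55 CPM in cluster 17, its highest class or unnamed cluster, but 15.8 CPM in epidermal-like cluster 14, where it was first in all 8 libraries and had 40.4% of its 203 UMIs. WNT7A averaged 4.28 CPM in cluster 29 and 27.5 CPM in cluster 14, and FGF17 9.01 CPM in cluster 14. WNT1 averaged 1.58 CPM in T cell-like cells and WNT2 0.528 CPM in cluster 22. The second WNT11 identifier averaged 0.616 CPM in cluster 21 and the second WNT4 identifier 0.798 CPM in cluster 29. BMP10, a circulating ligand from the heart in mammals, averaged 1.59 CPM in cluster 28, and BMP15, an oocyte factor in mammals, 0.616 CPM in cluster 21. The third BMP1 identifier averaged 1.67 CPM in cluster 17. At these levels a source rests on few UMIs.

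Contra was then compared with Intact within each source class by edgeR on UMI sums per library. Sums could be tested in 6 classes, and 19 of the 51 ligands passed the filter in their own source: 7 in connective tissue-like, 5 in endothelial-like, 4 in epidermal-like cells, 2 in cluster 2 and 1 in macrophage-like cells. None was called at a false discovery rate of 5%, and none had an unadjusted p under 0.05. edgeR called 0% of all genes in each of the 6 classes. At an unadjusted p under 0.05 the shares of all genes were 6.32% in connective tissue-like, 4.4% in epidermal-like, 7.01% in endothelial-like, 5.74% in erythroid-like and 5.45% in macrophage-like cells and 4.72% in cluster 2. DESeq2 called 0.0854% of genes in connective tissue-like, 0.0725% in epidermal-like, 0.389% in endothelial-like, 0.15% in erythroid-like and 0.0746% in macrophage-like cells and 0% in cluster 2. The 19 log2 fold changes lay between -0.59 ± 0.45 (FGF14, in endothelial-like cells) and 0.36 ± 0.33 (WNT10B), with a median of 0.06; 11 were above 0 and 8 below. The median over all genes lay between -0.03 and 0.02 in these classes. For the well-counted ligands the standard errors were small: 0.07 ± 0.08 for BMP1, 0.10 ± 0.11 for WNT11 and 0.06 ± 0.13 for BMP6. BMP2 AMEX60DD035718 in cluster 2 had a lower mean CPM in Contra, 138 ± 39.6 CPM in Contra and 145 ± 54.1 CPM in Intact (SD), with a fitted log2 fold change of 0.15 ± 0.25, so that the means and the fitted change differ in sign. The same is true of FGF14, at 5.20 ± 1.87 CPM in Contra and 4.58 ± 5.61 CPM in Intact (SD), n = 4 each. Without Intact 3 the log2 fold change of FGF14 was 0.30. It is also true, with nearly equal means, of BMP1 AMEX60DD002776 (324 CPM in Contra and 326 CPM in Intact) and BMP6 (275 CPM in Contra and 277 CPM in Intact).

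**Figure D4:**
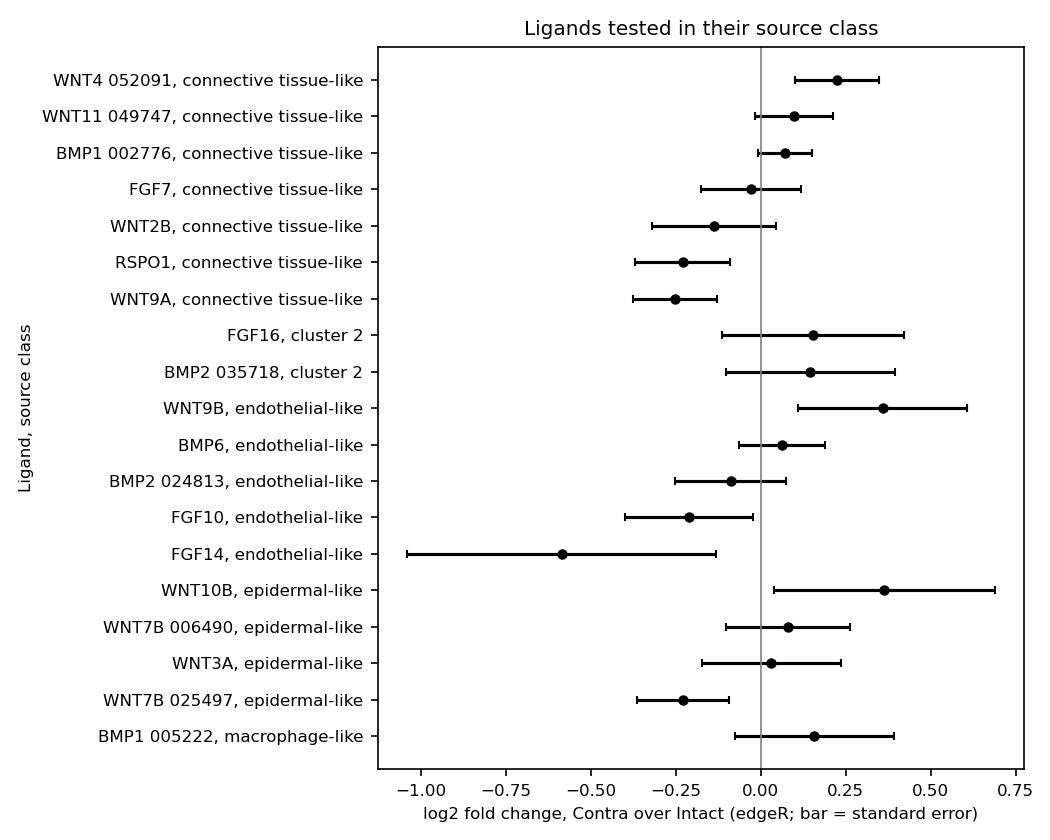
Log2 fold change, Contra over Intact, of the ligands tested in their source class, with bars of 1 SE on each side, grouped by class. The values lie between -0.59 for FGF14 and 0.36 for WNT10B, and none passes the adjusted threshold.

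Connective tissue-like cells are made of several clusters, the largest being cluster 0 (2010 cells in Contra and 643 in Intact) and cluster 3 (1644 cells in Contra and 647 in Intact). The comparison was repeated within single clusters, a test added after the class results were seen. The clusters were those of named classes in which a ligand had its highest level and each group had 3 libraries. They were thus chosen from the same data, and cluster 3 was not among them. The results named below were picked from all ligands tested in these clusters. WNT9A was lower in Contra in cluster 12, at 846 ± 123 CPM in Contra and 1382 ± 344 CPM in Intact (SD), n = 4 each, with a log2 fold change of -0.65 ± 0.17 (SE; unadjusted p = 0.00175, adjusted p = 0.292); 2.7% of all genes there had an unadjusted p under 0.05 with Contra lower. In cluster 4 it was read at 365 ± 44.7 CPM in Contra and 504 ± 84.1 CPM in Intact (SD) with all 4 Contra libraries below all 4 Intact libraries and a log2 fold change of -0.40 ± 0.14 (SE; unadjusted p = 0.0105, adjusted p = 0.571); 4.3% of all genes there had the groups apart in that direction. BMP5 had all Contra libraries above all Intact libraries in clusters 0, 8 and 11. Cluster 12, the connective tissue-like cluster with the highest BMP5 level (98.0 CPM, against 50.1 CPM in cluster 11), was tested but is not among these. The BMP5 comparisons in cluster 12 and the other clusters tested are not given here. In clusters 0, 8 and 11 the values were as follows. BMP5 was read at 65.2 ± 20.9 CPM in Contra and 34.9 ± 8.11 CPM in Intact (SD) in cluster 11. The log2 fold change there was 1.05 ± 0.25 (SE, unadjusted p = 0.00044, adjusted p = 0.358 by edgeR). In cluster 8 the log2 fold change was 0.64 ± 0.15 (SE; unadjusted p = 0.000551, adjusted p = 0.421) and in cluster 0 0.68 ± 0.22 (SE; unadjusted p = 0.0076, adjusted p = 0.963). The share of all genes apart with Contra higher was 2.43% in cluster 11, 1.82% in cluster 8 and 2.02% in cluster 0. Over the whole connective tissue-like class BMP5 had a log2 fold change of 0.26 ± 0.19 (SE; unadjusted p = 0.199, adjusted p = 0.894) with overlapping groups. FGF2 in cluster 11 and RSPO2 in cluster 8 also had the groups apart with Contra higher, at 0.81 ± 0.21 (SE; unadjusted p = 0.00116, adjusted p = 0.465) and 0.80 ± 0.23 (SE; unadjusted p = 0.00272, adjusted p = 0.594) on the log2 scale. No ligand passed the adjusted threshold in any of the 10 clusters tested, where edgeR called 0.00804% of all genes in cluster 11, 0.0163% in cluster 6 and 0% in the other 8.

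Outside their sources, ligands were read as well. In connective tissue-like cells 35 of the 54 identifiers were tested, 19 with log2 fold changes above 0 (49.1% of all genes) and 16 below, and 4 had an unadjusted p under 0.05. FGF1 was read at 17.3 ± 3.73 CPM in Contra and 12.5 ± 2.58 CPM in Intact (SD), n = 4 each, and WNT5B at 15.2 ± 1.59 CPM in Contra and 12.2 ± 2.36 CPM in Intact (SD), both with the groups apart and Contra higher. FGF18, at 0.406 ± 0.0691 CPM in Contra and 1.04 ± 0.489 CPM in Intact (SD), was apart with Contra lower, and BMP8B had a log2 fold change of -0.46 ± 0.20. Of all genes in that class 1.43% were apart with Contra higher and 2.35% with Contra lower. In cluster 2, BMP1 AMEX60DD002776 was apart with Contra lower, at 62.2 ± 5.86 CPM in Contra and 85.8 ± 12.9 CPM in Intact (SD) over 4 Contra and 3 Intact libraries, as were 5.33% of all genes there.

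In epidermal-like cells 24 ligands were tested, and 21 had log2 fold changes above 0, against 44% of all genes. Their median was 0.35, and 6 had an unadjusted p under 0.05, all with Contra higher, against 2.65% of all genes in that direction; none passed the adjusted threshold. The 2 with the lowest p were ligands of connective tissue-like cells. RSPO1 was read in epidermal-like cells at 36.0, 30.5, 26.2 and 27.5 CPM in Contra and 7.52, 20.3, 16.0 and 12.1 CPM in Intact, with the groups apart and a log2 fold change of 1.03 ± 0.21 (SE; unadjusted p = 0.000656, adjusted p = 0.943). WNT11 was read there at 9.48, 9.05, 8.51 and 8.08 CPM in Contra and 1.76, 6.53, 3.23 and 3.43 CPM in Intact, again with the groups apart, and a log2 fold change of 1.22 ± 0.27 (SE; unadjusted p = 0.00122, adjusted p = 0.943). Over all genes, 1.66% were apart there with Contra higher. The other 4 were both better counted BMP2 identifiers, BMP5 and FGF7. DESeq2 called RSPO1 and WNT11 in epidermal-like cells, with adjusted p-values of 0.0322 and 0.0392. RSPO1 in epidermal-like cells amounted to 1.36 to 2.06% of its level in the connective tissue-like cells of the same library in Contra and 0.299 to 1.25% in Intact.

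Connective tissue markers were read in the same cells. In epidermal-like cells the summed level of the list was 5288, 4046, 7545 and 3376 CPM in Contra and 2158, 6175, 2598 and 4237 CPM in Intact, overlapping between the groups. Contra 3 had the highest sum but the lowest RSPO1 level of the Contra libraries, whereas Intact 3 had the highest of both among the Intact libraries. All 11 of its identifiers that passed the filter had log2 fold changes above 0 (44% of all genes), with a median of 0.96. Of these, 4 had an unadjusted p under 0.05 by edgeR (2.65% of all genes in that direction). LUM averaged 131 CPM in Contra and 48.7 CPM in Intact, and PRRX1 AMEX60DD018450 averaged 9.41 CPM in Contra and 4.76 CPM in Intact. The log2 fold changes of the 4, LUM, TWIST1, COL3A1 and PRRX1 AMEX60DD018450, were 1.31, 1.46, 1.38 and 0.95. COL1A1 (2080 CPM in Contra and 1660 CPM in Intact) and COL1A2 (1980 CPM in Contra and 1694 CPM in Intact) made up most of the summed level. Their log2 fold changes were small, 0.26 and 0.16, so the sum mainly follows them and less the other markers. None of the list's 17 identifiers was at 0 in every library. In endothelial-like cells 10 of 10 tested connective markers had log2 fold changes above 0 (48% of all genes), with a median of 0.95. In erythroid-like cells 6 of 6 were above 0 (median 1.87) and in macrophage-like cells 6 of 7 (median 0.92). Markers with an unadjusted p under 0.05 by edgeR and Contra higher numbered 1 in endothelial-like, 6 in erythroid-like and 0 in macrophage-like cells. The shares of all genes with such a p in either direction were 7.01, 5.74 and 5.45%. The median log2 fold change over all genes was -0.01 in endothelial-like, 0.01 in erythroid-like and -0.0008 in macrophage-like cells. Of 17, 2 and 8 ligands tested in these 3 classes, 3, 2 and 2 had an unadjusted p under 0.05 by edgeR, against 7.01, 5.74 and 5.45% of all genes. Of these 7 tests, 6 were of ligands with their source in connective tissue-like cells, with RSPO1 in 2 classes. They were FGF7, WNT9A and WNT11 in endothelial-like, BMP1 AMEX60DD002776 and RSPO1 in erythroid-like and RSPO1 in macrophage-like cells. The other was BMP2 AMEX60DD024813 in macrophage-like cells. RSPO1 had a log2 fold change of 2.73 ± 0.75 (SE; unadjusted p = 0.00254, adjusted p = 0.484) in erythroid-like and 1.67 ± 0.69 (SE; unadjusted p = 0.0333, adjusted p = 0.911) in macrophage-like cells, and WNT11 of 0.90 ± 0.34 (SE; unadjusted p = 0.022, adjusted p = 0.672) in endothelial-like cells. In cluster 2, which itself raised most connective tissue markers, 8 of 12 of them were above 0 and 4 below. There, 12 of 17 ligands had log2 fold changes above 0, against 52.5% of all genes. The part of these markers in the ligand values was not tested.

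**Figure D5:**
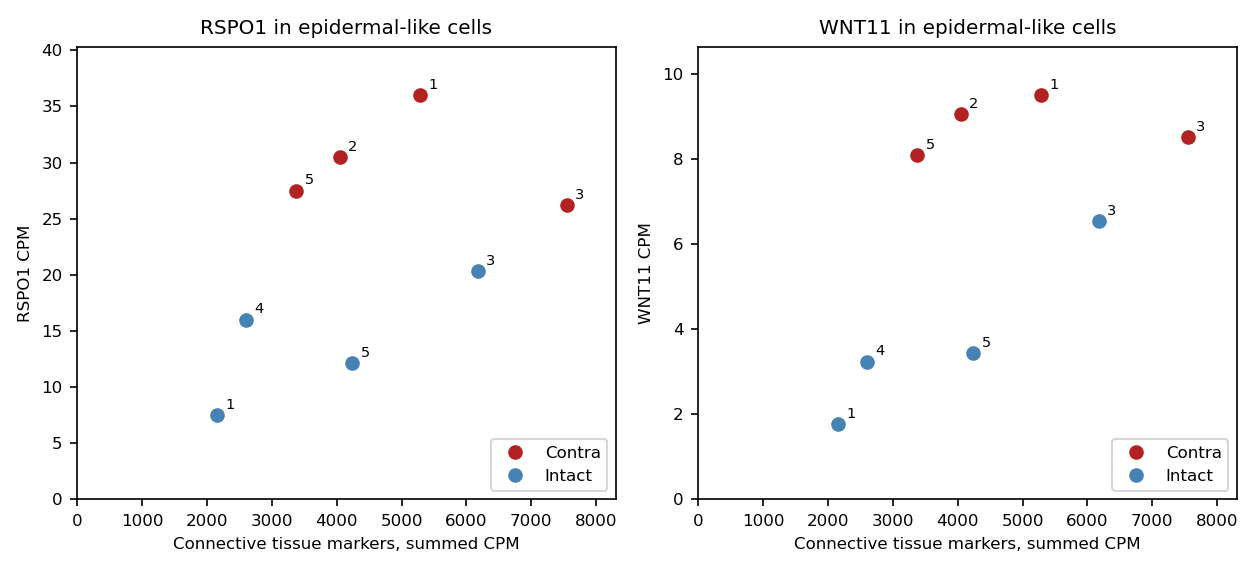
RSPO1 (left) and WNT11 (right) in epidermal-like cells, in CPM, against the summed CPM of the connective tissue markers in the same cells, 1 point per library with its number. RSPO1 lies at 26.2 to 36.0 CPM in Contra and 7.52 to 20.3 CPM in Intact, and the marker sum at 3376 to 7545 CPM in Contra and 2158 to 6175 CPM in Intact. Most of the marker sum is COL1A1 and COL1A2.

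The receptors, secreted inhibitors, transducers and targets of the 3 pathways were read from a list of 90 symbols, of which 78 were found under that symbol, as 98 identifiers. None was called by edgeR in any class. In connective tissue-like cells 84 were tested, 62 above 0 (49.1% of all genes) and 22 below, with a median log2 fold change of 0.09. Of the 84, 6 had an unadjusted p under 0.05 with Contra higher, as did 3.38% of all genes, and 1 with Contra lower, as did 2.93%. The type II receptor ACVR2A averaged 242.6 ± 8.92 CPM in Contra and 195 ± 27.7 CPM in Intact (SD, n = 4 each), with the groups apart and a log2 fold change of 0.38 ± 0.13 (SE; unadjusted p = 0.0117, adjusted p = 0.746). CHRDL1, a secreted BMP antagonist, averaged 71.8 ± 5.52 CPM in Contra and 96.2 ± 7.25 CPM in Intact (SD, n = 4 each), apart in the other direction. All 9 BMP transducers and targets tested there had log2 fold changes above 0, as did that 49.1% of all genes, among them ID1 at 0.41 ± 0.19 and ID3 at 0.61 ± 0.30 (SE), and 1 of the 9 had an unadjusted p under 0.05. Most other lists leaned the same way. Above 0 were 9 of 10 FGF feedback and target genes, 7 of 8 WNT targets, 6 of 7 BMP receptors and 11 of 15 WNT receptors. For BMP antagonists it was 10 of 17, for WNT inhibitors 6 of 10 and for FGF receptors 3 of 6. The WNT targets NKD1 and APCDD1 and the receptors ROR1, FZD2, FGFR1 and BMPR2 had log2 fold changes between 0.03 and 0.13 in the same cells, counting the better counted FZD2 identifier.

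In endothelial-like cells 8 BMP transducers and targets were tested, 4 with log2 fold changes above 0 and 4 below, with a median of 0.005. Of these, 1 was apart with Contra higher and 1 with Contra lower. The one with Contra higher, the BMP target ID3, averaged 171 ± 14.7 CPM in Contra and 133 ± 17.4 CPM in Intact (SD, n = 4 each). ID3 had a log2 fold change of 0.48 ± 0.13 (SE, unadjusted p = 0.00296, adjusted p = 0.585) by edgeR and an adjusted p of 0.0472 by DESeq2. The receptors ACVRL1 and ENG and the transducer SMAD1 had their own source in endothelial-like cells, at 228, 259 and 225 CPM. PORCN, which attaches the lipid to WNT proteins, averaged 27.3 ± 4.15 CPM in Contra and 41.9 ± 7.54 CPM in Intact (SD, n = 4 each), apart with Contra lower. Over all genes of these cells, 1.54% were apart with Contra higher and 3.31% with Contra lower. Of 55 identifiers tested there, 37 had log2 fold changes above 0, against 48% of all genes. In epidermal-like cells 54 of 69 were above 0, against 44% of all genes, and 13 had an unadjusted p under 0.05, all with Contra higher, against 2.65% of all genes; SFRP2 AMEX60DD045083, a WNT inhibitor whose source was cluster 22, had the largest log2 fold change at 1.85 ± 0.46 (SE). The tested connective tissue markers given above also had log2 fold changes above 0 in those cells, and their part was not tested.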

How the data were processed

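RNA of sorted limb cells was counted in 4 Contra and 4 Intact libraries. Per the labels' protocols the libraries are 10x Genomics 3' libraries, and kallisto 0.48.0 and Seurat 4.2.0 are named in the submitters' processing notes. The authors deposited UMI counts, whole numbers per gene and cell that are not normalized; the genome build and the use of strand are not given in the sources used here. Rows without a gene identifier held 582 of 395722206 UMIs and were left out. Of 34149 deposited cells, each with at least 450 genes, 33860 had at least 500. A doublet caller marked 104 (0.307%), too few to have worked, so leaving out the 1361 cells with the highest scores was tried as an alternative. Across libraries, 135 barcodes recur. No columns of other samples were present (0 unused).

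Cells were clustered with scanpy 1.11.5 (2000 variable genes, 30 principal components, 20 neighbours, Leiden resolution 1). A cluster was named where at least 3 markers of a list were raised, at 20 CPM and 4 times the lower quartile of clusters, and its leading 10 genes did not go against the name; that scoring rule was set with earlier results known. A source needs 50 UMIs in all, 20 cells per library and 3 libraries. UMI sums per library and class were tested with edgeR 4.0.16 (quasi-likelihood, TMM, filterByExpr, Benjamini-Hochberg over all genes of the class; limma 3.58.1 underlies it) in R 4.3.3, wherever each group had 3 libraries. Alternatives were DESeq2 1.42.0, RLE size factors, no filter, a replicate block, a term for library numbers 1 and 3, Leiden resolutions 0.5 and 2, pooled CPM and each library left out; a minimum of 10 cells and single clusters were added after results were seen. On simulated counts of connective tissue-like cells the fit recovered the changed genes. Those were 4-fold changes in well-counted genes, with the spread between libraries capped. The simulation therefore does not tell whether changes as small as those of the ligands in their sources would be found. The ligands, the pathway list and the markers were chosen with earlier results of these data known. Named with values were the 6 identifiers of highest mean CPM in each source and any whose groups did not overlap there; values per library are limited to those with 10 CPM, a limit set after the values were seen, except BMP2 AMEX60DD052421. Rows that share a symbol were not merged. The identifiers of WNT10B, FGF9 and FGF13 each have a second row that does not end in that symbol, which was not merged either. Those rows hold 1286, 179 and 88 UMIs, beside 2065, 393 and 1409 UMIs in the rows read. The levels of these 3 ligands leave them out. Correlations of the deviations of libraries with the same number in both groups were mixed. Over classes they ran between -0.16 and 0.03 for number 1. For number 3 they ran between 0.12 and 0.36, and for number 5 between 0.09 and 0.25. Between libraries of different numbers they ran between -0.54 and 0.39. In connective tissue-like cells the highest of those was 0.09, against 0.26 for number 3 and 0.11 for number 5. These values do not decide whether the numbers pair the libraries, and the main test used no pairing. SDs and SEs carry the spread between libraries.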

Additional observations from a re-analysis of the deposited data

Results flagged for a closer look

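Among the 41 groups of 4 libraries read for ligands in their source class, 3 held a library far from the other 3, a gap that chance gives in about 1 of 20 groups. In cluster 22, BMP5 AMEX60DD033480 was at 383 CPM in Contra 5 (156 UMIs in 52 cells) and at 146 to 159 CPM in the other Contra libraries. In macrophage-like cells, BMP1 AMEX60DD005222 was at 113 CPM in Contra 3 (206 UMIs in 99 cells) and at 73.4 to 76.4 CPM in the other Contra libraries. In cluster 22, RSPO3 AMEX60DD034707 was at 64.2 CPM in Contra 3 (181 UMIs in 172 cells) and at 107 to 116 CPM in the other Contra libraries.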

How the results depend on the processing

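Of 36 log2 fold changes of ligands recomputed under up to 18 other settings, 12 changed sign under at least 1 of them and 5 became called under at least 1. The sign changes concern ligands with no call in their source class. Over the libraries left out in turn these were BMP1 AMEX60DD005222 in macrophage-like cells (-0.030 to 0.31), BMP6 (-0.0059 to 0.15) and FGF14 AMEX60DD048162 (-0.76 to 0.30) in endothelial-like cells, FGF16 in cluster 2 (-0.035 to 1.07), FGF7 in connective tissue-like cells (-0.11 to 0.16), and WNT3A (-0.12 to 0.17) and WNT7B AMEX60DD006490 (-0.021 to 0.23) in epidermal-like cells. FGF14 reversed without Intact 3. With at least 10 cells per library BMP2 AMEX60DD035718 in cluster 2 was at -0.15. Without the filter on low counts FGF7 was at 0.011 and BMP2 AMEX60DD024813 in endothelial-like cells at 0.0067. In the cells of the leading cluster within the source class alone, WNT4 was at -0.18 (cluster 12), BMP2 AMEX60DD024813 at 0.067, FGF10 at 0.071 and WNT3A at -0.19. With the library number as a replicate block, BMP2 AMEX60DD035718 was at -0.35, FGF16 at -0.14, WNT11 in connective tissue-like cells at -0.00074 and BMP2 AMEX60DD024813 at 0.0042. The block gave 44 called genes in cluster 2, 49 in connective tissue-like and 47 in endothelial-like cells, and no called ligand. The correlations between libraries of the same number do not decide whether the numbers pair the libraries.

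The edgeR test called 0 genes in every class, with the shares at an unadjusted p under 0.05 given above. DESeq2 called 27 genes in connective tissue-like, 59 in endothelial-like, 16 in epidermal-like, 13 in erythroid-like and 8 in macrophage-like cells, including 2 ligands in epidermal-like cells (RSPO1 and WNT11) and 1 pathway gene in endothelial-like cells (ID3). With no filter edgeR called 66 genes in cluster 2, 1 in connective tissue-like, 342 in endothelial-like, 6 in epidermal-like, 104 in erythroid-like and 216 in macrophage-like cells. Those include 2 ligands each in endothelial-like (RSPO1, WNT11), erythroid-like (RSPO1, RSPO2) and macrophage-like cells (RSPO1, FGF10), and 1 pathway gene each in endothelial-like (ID3) and erythroid-like cells (FGFRL1). A term for library numbers 1 and 3 gave 2 genes in cluster 2. Leaving out each library in turn gave 0 to 8 genes in epidermal-like, 0 to 59 in erythroid-like and 0 to 21 in macrophage-like cells; the highest counts were without Intact 3, where WNT11 and SFRP2 were called in epidermal-like cells (0 to 1 ligand and 0 to 1 pathway gene over the libraries left out).

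Sources moved with the clustering. At Leiden resolution 2, 12 of the 25 ligands with a named source kept it, and connective tissue-like cells were the source of 3, endothelial-like cells of 4 and epidermal-like cells of 0; the 4 epidermal WNT identifiers were highest in cluster 39 there, 199 cells that did not meet the naming rule. With named classes only, connective tissue-like cells were the source of 20 and epidermal-like cells of 8. With pooled CPM, endothelial-like cells were the source of 4. Over the libraries left out in turn, connective tissue-like cells were the source of 7 to 11, the highest without Contra 5. The causes were not tested. Intact libraries held as few as 54 endothelial-like cells and often fewer than 20 in the unnamed clusters, which limits the comparison for the ligands of cluster 17, cluster 21 and cluster 22.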

Other observations

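WNT9A peaked in cluster 23, 381 connective tissue-like cells led by COL11A1, COL5A3 and HHIP, at 1337 CPM. WNT2B (68.6 CPM), FGF1 (71.7 CPM), FGF12 AMEX60DD003212 (77.1 CPM), FGF14 AMEX60DD048162 (10.8 CPM), FGF9 (3.58 CPM) and FGF18 (2.37 CPM) also had their highest mean there among the clusters. After thinning to 2000 UMIs, 81.2% of cluster 23 cells held a WNT9A UMI, against 0.608% of erythroid-like cells.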
